A study of Mus musculus with 18 samples.

Results

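The cell cycle and mitosis genes described here were 55 genes taken by gene symbol from the deposited count table of mouse larynx, out of 54532 genes listed. Of these, 36 encode proteins of G2 and mitosis and 19 encode proteins of S phase or of the entry into it. All 55 passed the filter on low counts and were among the 17537 genes tested. Whole larynges came from male C57BL6/J mice aged 8 to 9 weeks that had spent 1 h a day, 5 days a week, for 4 weeks in a whole-body inhalation chamber. There were 6 libraries from mice in room air, 6 from mice that breathed 3R4F cigarette smoke (a reference cigarette), and 6 from mice that breathed JUUL Virginia tobacco e-cigarette aerosol. No allele or transgene is named for any group. The design asks how each exposure differs from air and how the exposures differ from each other.

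A dividing cell first copies its DNA in S phase, using a helicase loaded at origins, a sliding clamp for the polymerases and enzymes that make nucleotides. It then passes through G2 and mitosis, when cyclin-bound kinases, spindle motors, kinetochore proteins and a contractile ring separate the chromosomes and the daughter cells. S phase genes are typically transcribed from promoters with E2F sites, and G2 and mitosis genes from promoters with a CHR element (cell cycle genes homology region), often beside CCAAT boxes bound by NF-Y. In an airway lining such as that of the larynx, dividing cells are found mainly in the basal epithelium, and immune, stromal and gland cells can divide as well.

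Transcripts of the 55 genes made up 0.0354% to 0.0507% of an air library, 0.0346% to 0.0558% of a smoke library and 0.0429% to 0.0673% of an e-cigarette library, from totals of 15.6 to 22.5 M counts per library. This gave 5604 to 14442 counts on the members per library. Thyroid tissue adjoins the larynx, and Tg, the thyroglobulin transcript of thyroid follicles, accounted for 6.13% to 10.2% of each air library and 5.87% to 9.24% of each smoke library. The e-cigarette group, from library 1 to library 6, had 2.69%, 0.0729%, 2.77%, 0.00854%, 0.00795% and 0.271%, so the thyroid content of this group stood apart from that of both others. Epithelial markers of the larynx were present in every group, where the basal epithelium list summed to 2005 to 3932 CPM (counts scaled to a library of 1e6) for air, 1565 to 3250 CPM for smoke and 2480 to 4042 CPM for e-cigarette. Whether every library came from its own animal is not stated in the labels, and the p-values therefore describe the spread between these samples, which may be technical. In whole tissue, fewer cells of a type and less RNA per cell cannot be told apart.

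The promoter windows below were chosen because the mitosis genes moved together and the S phase genes mostly did not. They were picked after the members' values were seen and show the stretch from 120 bases before to 30 bases after the annotated start, from RefSeq sequences of GRCm38.p6, 5′ to 3′ on the gene's own strand. Capitals mark every match, on either strand, to the CHR letters TTTGAA, the NF-Y box CCAAT and the E2F forms TTTCCCGC, TTTCGCGC, TTTGCCGC and TTTGGCGC. Top2a (topoisomerase II alpha, chr11:99024160-99024309, minus strand), Kif11 (a spindle motor, chr19:37376262-37376411, plus strand), Hmmr (a spindle protein, chr11:40733408-40733557, minus strand) and Kif23 (a cytokinesis motor, chr9:61946770-61946919, minus strand) each hold 1 CHR match with NF-Y boxes upstream of it. Melk (a kinase of dividing cells, chr4:44300797-44300946, plus strand) holds none of these letters in this window and is shown as the exception.
Top2a: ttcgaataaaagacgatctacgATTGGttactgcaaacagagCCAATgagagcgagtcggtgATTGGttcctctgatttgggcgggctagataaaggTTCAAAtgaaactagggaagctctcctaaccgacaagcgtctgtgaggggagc
Kif11: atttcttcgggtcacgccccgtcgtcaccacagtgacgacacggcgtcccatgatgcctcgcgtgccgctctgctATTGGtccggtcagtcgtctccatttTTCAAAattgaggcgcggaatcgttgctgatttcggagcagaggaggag
Hmmr: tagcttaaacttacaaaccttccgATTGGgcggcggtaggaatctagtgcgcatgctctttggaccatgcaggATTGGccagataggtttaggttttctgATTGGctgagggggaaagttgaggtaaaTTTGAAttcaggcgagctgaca
Kif23: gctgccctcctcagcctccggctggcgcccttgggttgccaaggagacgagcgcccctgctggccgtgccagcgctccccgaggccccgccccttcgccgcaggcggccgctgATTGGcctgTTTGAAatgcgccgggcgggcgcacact
Melk: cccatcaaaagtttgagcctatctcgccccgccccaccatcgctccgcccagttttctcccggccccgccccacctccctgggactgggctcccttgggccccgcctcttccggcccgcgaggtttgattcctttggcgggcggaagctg

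The S phase counterparts are the helicase subunits Mcm6 (chr1:128359676-128359825, minus strand) and Mcm3 (chr1:20820283-20820432, minus strand), whose e-cigarette differences from air (-0.11 and -0.01 on the log2 scale) did not pass the test, and Rrm1 (chr7:102441575-102441724, plus strand), the large subunit of ribonucleotide reductase, the only S phase member whose e-cigarette libraries all lay above air. Mcm6 holds 3 E2F matches, of which the first pair overlap, and 2 NF-Y boxes. Mcm3 holds 1 E2F match just after the start and 3 NF-Y boxes, and Rrm1 holds 2 NF-Y boxes and no E2F or CHR match.
Mcm6: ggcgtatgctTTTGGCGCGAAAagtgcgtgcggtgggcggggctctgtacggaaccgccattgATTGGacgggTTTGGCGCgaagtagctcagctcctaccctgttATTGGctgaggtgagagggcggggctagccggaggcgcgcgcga
Mcm3: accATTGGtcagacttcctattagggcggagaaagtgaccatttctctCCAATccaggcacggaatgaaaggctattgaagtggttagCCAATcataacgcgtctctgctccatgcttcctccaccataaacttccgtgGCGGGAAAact
Rrm1: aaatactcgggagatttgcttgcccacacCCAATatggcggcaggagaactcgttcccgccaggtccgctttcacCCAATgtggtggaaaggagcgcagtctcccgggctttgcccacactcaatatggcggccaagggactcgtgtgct

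In the full windows of 250 bases before to 50 after the start, which were held for 46 of the 55 members, the CHR letters were present in 23 of 30 mitosis genes (76.7%) and in 2 of 16 S phase genes (12.5%). Among all 12628 tested genes with a window the share was 14.7%. The E2F forms were present in 1 of 30 mitosis genes (3.33%), in 7 of 16 S phase genes (43.8%) and in 4.13% of all tested genes. NF-Y boxes were in 80.0% of mitosis genes, 62.5% of S phase genes and 41.8% of all tested genes, and a CHR match together with an NF-Y box was in 70.0%, 12.5% and 7.06%. Other mitosis genes outside the 55 had the CHR letters in 25 of 43 windows (58.1%), and other S phase genes had an E2F form in 10 of 30 (33.3%). A match is a match of letters and does not show binding. Kif20a, Tpx2, Foxm1, Mcm4, Stmn1, Gins2, Ccna2, Aurkb and Ccne2 had no window in the table used.

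**Figure D1:**
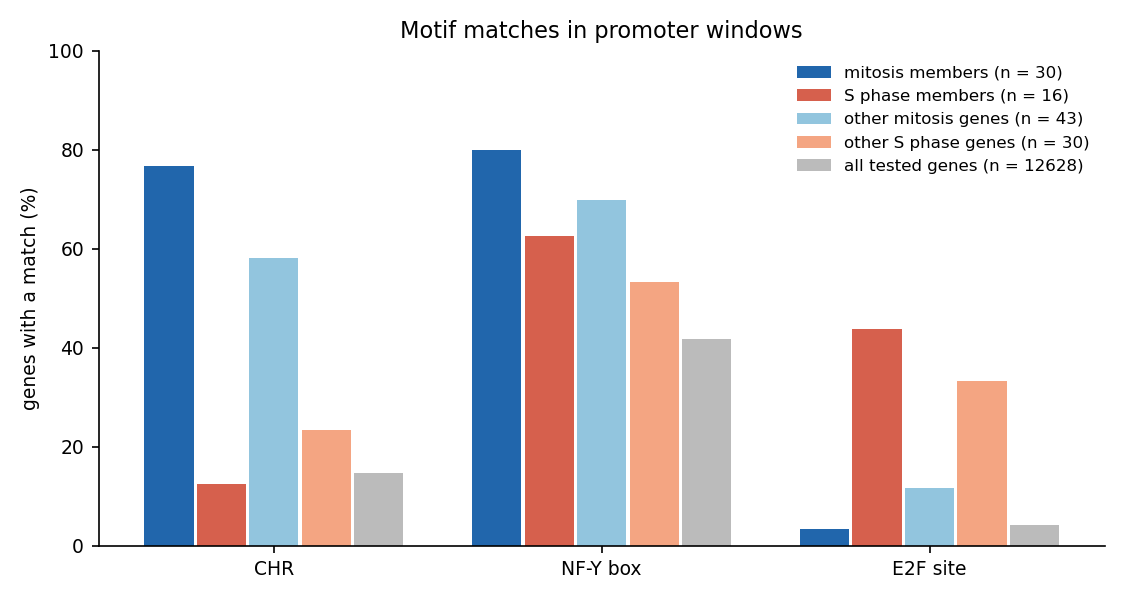
Share of genes (%, y axis) whose promoter window of 300 bases holds a CHR, NF-Y box or E2F match, for members, other cell cycle genes and all tested genes. CHR matches were in 76.7% of the mitosis members and 12.5% of the S phase members, and E2F matches in 3.33% and 43.8%.

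Mitosis transcripts were higher after e-cigarette aerosol than in air, and S phase transcripts were largely level. Of the 36 mitosis genes, 32 rose and none fell, against 12.1% of all tested genes that rose (edgeR quasi-likelihood test, adjusted p below 0.05 over all tested genes). Of the 19 S phase genes, 2 rose (Rrm1 and Rrm2) and 1 fell (Gins2), where 13% of all tested genes fell. The median log2 fold change was 0.94 over the mitosis genes, with a range of 0.30 to 1.32, and 0.16 over the S phase genes, beside 0.01 over all tested genes. In total 35 of 55 members were called, and 25.1% of all tested genes were. The 24 mitosis calls that held when any 1 of the 18 libraries was left out made up most of the 32, and those lost in at least 1 such fit were Cdc20, Aurka, Aurkb, Plk1, Ttk, Tpx2, Birc5 and Tacc3.

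Summed over the 36 mitosis genes, air libraries lay at 164 to 205 CPM. E-cigarette libraries 1 to 6 lay at 437, 403, 320, 236, 261 and 428 CPM, and smoke libraries 1 to 6 at 236, 318, 178, 202, 158 and 264 CPM. Every e-cigarette library was above every air library, while the smoke libraries spanned the air range and reached beyond it on both sides. The 19 S phase genes summed to 209 to 263 CPM among air, 196 to 247 CPM among smoke and 226 to 277 CPM among e-cigarette libraries, and these ranges overlapped. Per kilobase of gene length, the median mitosis gene had 0.931 CPM among air, 1.08 CPM among smoke and 1.76 CPM among e-cigarette libraries, and the median S phase gene had 1.67, 1.62 and 1.92 CPM. On that scale Stmn1 was the most abundant mitosis gene (10.7 CPM per kilobase in air) and Ttk the least (0.178), while Pcna (22.4) and Cdc6 (0.318) bounded the S phase genes.

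**Figure D2:**
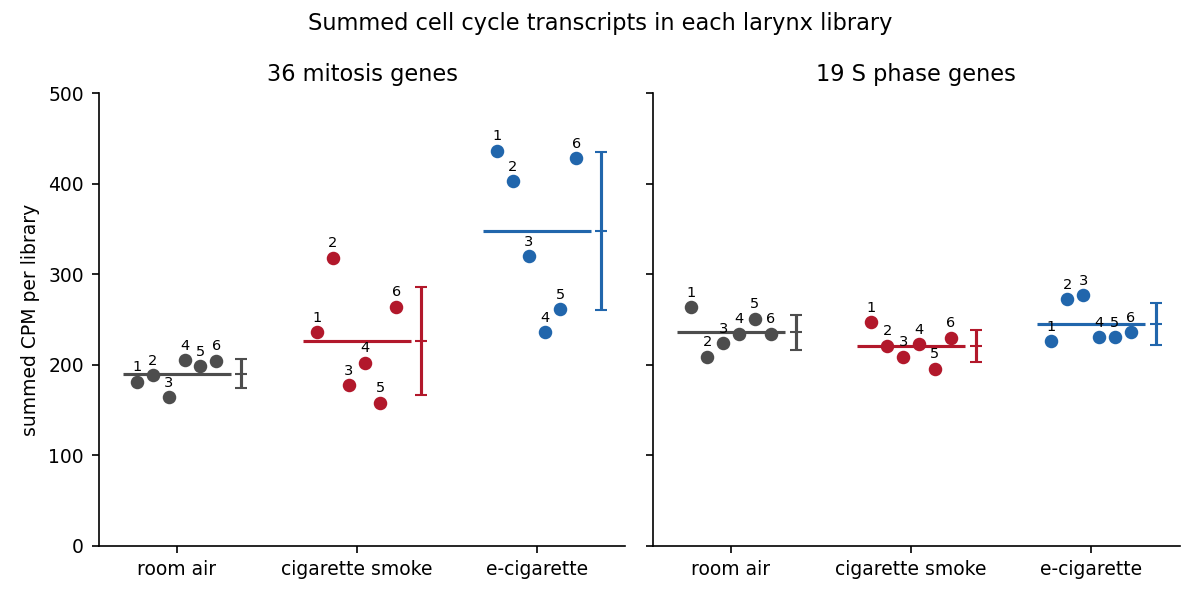
Summed CPM (y axis) of the 36 mitosis genes (left) and the 19 S phase genes (right) in each library; points are libraries with their replicate number, horizontal lines are group means and bars beside them ± SD. The 6 e-cigarette libraries lie at 236 to 437 CPM for mitosis, above the air range of 164 to 205 CPM, and overlap it for S phase.

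Both genes of chromosome proteins rose in e-cigarette, with a median of 1.17. Top2a untangles sister DNA before it is pulled apart (ENSMUSG00000020914, chromosome 11, 98992943 to 99024189, GRCm38). It ran from 10.1 to 15.9 CPM in air (median 11.4), from 10.7 to 22.5 CPM in smoke (median 13.1) and from 14.8 to 37.2 CPM in e-cigarette (median 29.8). Only e-cigarette library 4, at 14.8 CPM, reached into the air range. The mean was 12.5 ± 2.68 CPM for air against 27.8 ± 9.13 CPM for e-cigarette (± SD over n = 6 libraries here and after), a log2 fold change of 1.15 (SE 0.22, adjusted p = 0.000756). Mki67, the Ki-67 protein that coats mitotic chromosomes, ran from 7.44 to 19.9 CPM in air (median 14.6), 9.09 to 31.2 CPM in smoke (median 17.2) and 17.5 to 48.1 CPM in e-cigarette (median 29.5). Its log2 fold change in e-cigarette was 1.20 (SE 0.32, adjusted p = 0.0101), and the groups overlapped only through library 4.

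Cytokinesis genes all rose, 6 of 6, with a median log2 fold change of 0.93. Anln encodes anillin of the cleavage furrow (ENSMUSG00000036777, chromosome 9, 22332012 to 22389188) and had the smallest p of all members. It was narrow in air at 6.61 to 8.01 CPM (median 7.33), 7.07 to 14.3 CPM in smoke (median 8.64) and 10.8 to 19.97 CPM in e-cigarette (median 16.3). The e-cigarette and air ranges did not overlap, and the log2 fold change was 1.11 (SE 0.18, adjusted p = 0.000156). Prc1, which bundles the microtubules of the central spindle, was at 5.23 to 7.57 CPM in air (median 6.31), 5.18 to 8.20 CPM in smoke (median 6.44) and 7.93 to 13.9 CPM in e-cigarette (median 10.8). It likewise showed no overlap with air (0.77, SE 0.14, adjusted p = 0.000559). Racgap1, a subunit of centralspindlin with Kif23, rose from 7.46 ± 1.23 to 14.6 ± 3.71 CPM (0.97, SE 0.19, adjusted p = 0.00084). Kif20a, Ect2 and Kif23 rose by 0.96, 0.89 and 0.75.

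Spindle genes rose in 6 of 8 cases, with a median of 0.80. Kif2c, a kinesin that takes microtubules apart at centromeres, had the largest fold change of the 55. Its libraries lay at 0.834 to 2.92 CPM in air (median 1.85), 0.946 to 3.99 CPM in smoke (median 2.30) and 2.97 to 7.03 CPM in e-cigarette (median 4.66). All e-cigarette libraries were above the highest air library, the lowest of them by little, with a log2 fold change of 1.32 (SE 0.31, adjusted p = 0.0034). Hmmr went from 1.54 to 2.68 CPM in air (median 2.18) to 3.13 to 6.66 CPM in e-cigarette (median 4.73), with smoke at 2.02 to 4.97 CPM (median 2.52). That is a log2 fold change of 1.13 (SE 0.24, adjusted p = 0.00199) with no overlap. Nusap1, a bundler of spindle microtubules, went from 1.99 to 4.72 CPM in air (median 3.04) to 4.86 to 10.1 CPM in e-cigarette (median 7.15), with smoke at 3.41 to 6.89 CPM (median 4.43). Its e-cigarette and air libraries did not overlap either (1.12, SE 0.22, adjusted p = 0.000911). Kif11 (1.02), Tpx2 (0.59), which activates Aurka, and Tacc3 (0.43) also rose, while Kif4 (0.50, adjusted p = 0.135) and Stmn1 (0.30, adjusted p = 0.289) did not pass the test. Stmn1, the tubulin-binding stathmin, is expressed outside mitosis too, and its e-cigarette libraries at 16.1 to 33.2 CPM (median 25.3) enclosed the air range of 17.2 to 23.3 CPM (median 21.6).

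**Figure D3:**
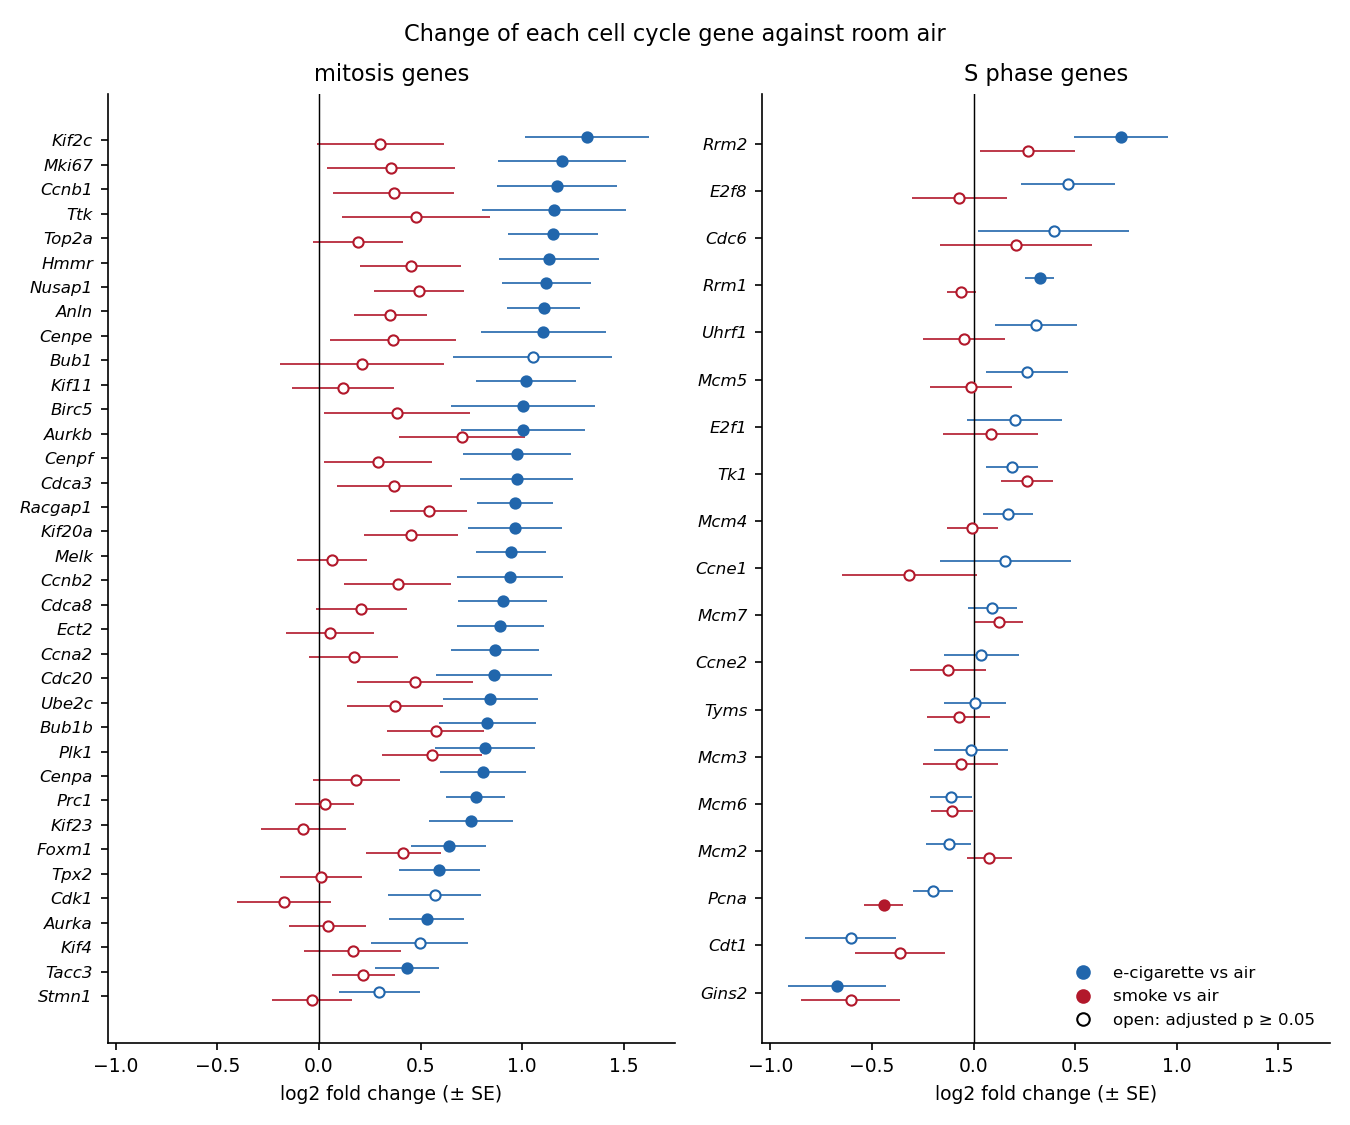
Log2 fold change (x axis, ± SE) of each member against air, mitosis genes left and S phase genes right, ordered by the e-cigarette value; blue is e-cigarette, red is smoke, and filled points have an adjusted p below 0.05. All 36 mitosis genes lie right of 0 in e-cigarette, from 0.30 to 1.32, and the S phase genes lie on both sides of it.

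Among kinases and cyclins, a group that also held the transcription factor Foxm1, 8 of 9 rose. Melk was at 6.19 to 9.87 CPM in air (median 7.63), 6.25 to 9.70 CPM in smoke (median 7.87) and 9.95 to 20.2 CPM in e-cigarette (median 14.8). The e-cigarette libraries lay above all libraries of both other groups, with a log2 fold change of 0.94 against air (SE 0.17, adjusted p = 0.000454). Ccnb1, cyclin B1 and partner of Cdk1, ran from 2.53 to 5.29 CPM in air (median 3.29), 2.53 to 7.54 CPM in smoke (median 4.39) and 3.99 to 12.1 CPM in e-cigarette (median 7.88). It overlapped through e-cigarette libraries 4 and 5 and rose by 1.17 (SE 0.29, adjusted p = 0.00624). Ccnb2 (0.94) and Ccna2 (0.87), the other mitotic and G2 cyclins, rose as well. Cdk1 itself, the mitotic kinase, ran from 2.95 to 6.32 CPM in air (median 4.67), 2.65 to 5.69 CPM in smoke (median 3.82) and 4.62 to 9.44 CPM in e-cigarette (median 6.77). Its difference of 0.57 did not pass the test (SE 0.23, adjusted p = 0.0748). Nor did it in 17 of 18 edgeR fits without 1 library (adjusted p up to 0.181) or in 15 of 16 other alternatives. It passed without air library 5, the highest of that group (0.68, adjusted p = 0.0433). It also passed without air libraries 4, 5 and 6, the gland-poor ones described next (0.98, adjusted p = 0.014).

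Plk1, the polo-like kinase, was widely spread over the air libraries, with a coefficient of variation of 46.8%. Bub1 (64.7%) and Cenpe (48.0%) were more so. The air libraries ran from 4.21 to 17.1 CPM in Plk1, with a median of 10.2. Air libraries 2 and 3, at 16.9 and 17.1 CPM, lay within its e-cigarette range of 15.1 to 27.2 CPM (median 18.4). Smoke libraries lay at 14.4 to 18.5 CPM (median 15.7). The e-cigarette difference was 0.82 (SE 0.25, adjusted p = 0.0195). It was 0.36 (adjusted p = 0.149) without air libraries 4, 5 and 6, the 3 lowest in Plk1. Those libraries also held the least gland RNA, 1130 to 5412 CPM summed over 10 acinar markers against 17980 to 25441 CPM in air libraries 1 to 3, and its part in the result was not tested. Cenpe and Cenpf, among other mitosis genes, split over the same air libraries in the other direction. Cenpe was at 1.28 to 2.19 CPM in air libraries 1 to 3 and 4.33 to 4.67 CPM in 4 to 6. Cenpf was at 2.99 to 3.43 and 5.78 to 7.00 CPM and Mki67 at 7.44 to 13.1 and 16.2 to 19.9 CPM. The summed mitosis genes were at 164 to 189 and 198 to 205 CPM. Stmn1 split as Plk1 did, at 22.4 to 23.3 and 17.2 to 20.7 CPM, and some genes, such as Anln, did not split. Aurkb, the kinase of the chromosomal passenger complex, ran from 1.03 to 2.04 CPM in air (median 1.45), 1.01 to 4.15 CPM in smoke (median 2.28) and 2.02 to 4.65 CPM in e-cigarette (median 2.89). It rose by 1.00 (SE 0.31, adjusted p = 0.0206), and Aurka, the spindle pole kinase, by 0.53 (adjusted p = 0.0425). Foxm1, a transcription factor of G2 and mitosis genes, ran from 2.42 to 4.09 CPM in air (median 2.76), 3.15 to 4.92 CPM in smoke (median 3.87) and 2.81 to 5.81 CPM in e-cigarette (median 4.87). It rose by 0.64 (SE 0.18, adjusted p = 0.0143), less than most of the mitosis genes.

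All 6 genes of the centromere and passenger group, which also held Cdca3, rose. They did so by 0.81 (Cenpa, the centromeric histone) to 1.10 (Cenpe, a kinetochore kinesin), and the e-cigarette libraries of Cenpa and Cdca8 did not overlap air. Of 5 checkpoint and anaphase genes, 4 rose, namely Ttk (1.16), Cdc20 (0.86), Ube2c (0.84) and Bub1b (0.83). Bub1, a spindle checkpoint kinase, differed by 1.05 with an adjusted p of 0.0535. It was among the least counted members, with 5 to 41 counts in the air libraries. Ranges that did not overlap between e-cigarette and air, with e-cigarette higher, were seen for 11 of 36 mitosis genes, 1 of 19 S phase genes and 4.5% of all tested genes. No member lay wholly below air, which 6% of all tested genes did, and 10.5% did not overlap in either direction.

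S phase genes were mixed. Rrm1 (ENSMUSG00000030978, chromosome 7, 102441695 to 102469771) lay at 30.2 to 36.9 CPM in air (median 34.1), 30.7 to 35.9 CPM in smoke (median 32.2) and 39.4 to 45.7 CPM in e-cigarette (median 43.3). Its e-cigarette libraries were above all 12 others, a small difference in fold (0.32, SE 0.07, adjusted p = 0.00214) against a narrow spread. Rrm2, the cell cycle-regulated small subunit of the same reductase, ran from 2.62 to 3.79 CPM in air (median 3.28), 1.96 to 4.81 CPM in smoke (median 4.22) and 3.45 to 7.41 CPM in e-cigarette (median 5.06). It rose by 0.72 (SE 0.23, adjusted p = 0.0257), and the call was lost without any of air libraries 5 and 6 and e-cigarette libraries 2, 3 and 6 (adjusted p up to 0.0735).

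The helicase subunits Mcm2 to Mcm7 differed from air by between -0.12 (Mcm2) and 0.26 (Mcm5) in e-cigarette, and none passed the test. Mcm2 ran from 11.4 to 15.8 CPM in air (median 13.9), 13.6 to 16.2 CPM in smoke (median 14.8) and 9.91 to 15.8 CPM in e-cigarette (median 13.1). Mcm5 ran from 5.52 to 10.8 CPM (median 7.34), 4.78 to 9.63 CPM (median 8.04) and 6.24 to 13.7 CPM (median 8.25) in the same order. Within the e-cigarette group the S phase genes did not follow the mitosis genes. Library 1 had the highest mitosis sum and the lowest S phase sum, with 7 of 19 S phase genes below every air library, while libraries 2 and 3 had 8 of 19 above every air library.

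Gins2, a helicase subunit, was the only member that fell in e-cigarette (from 3.49 ± 1.26 to 2.19 ± 0.499 CPM, -0.67, SE 0.24, adjusted p = 0.0474). Its air value leaned on library 5 at 5.92 CPM, without which the difference was -0.45 (adjusted p = 0.15). The call was also lost without air library 3, 4 or 6, smoke library 3, or e-cigarette library 1, 3, 4, 5 or 6 (adjusted p from 0.0515 to 0.0958). Cdt1, which loads the helicase, differed by -0.61 with an adjusted p of 0.0522. E2f1, the activator of S phase genes, was at 1.28 to 3.87 CPM in air (median 3.16), 2.36 to 4.72 CPM in smoke (median 2.90) and 2.57 to 4.40 CPM in e-cigarette (median 3.53), a difference of 0.20 (adjusted p = 0.562). Ccne1, cyclin E1 of the entry into S phase, was at 1.11 to 2.59 CPM (median 1.46), 0.450 to 2.13 CPM (median 1.07) and 0.891 to 2.68 CPM (median 1.54), a difference of 0.16 (adjusted p = 0.761).

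**Figure D4:**
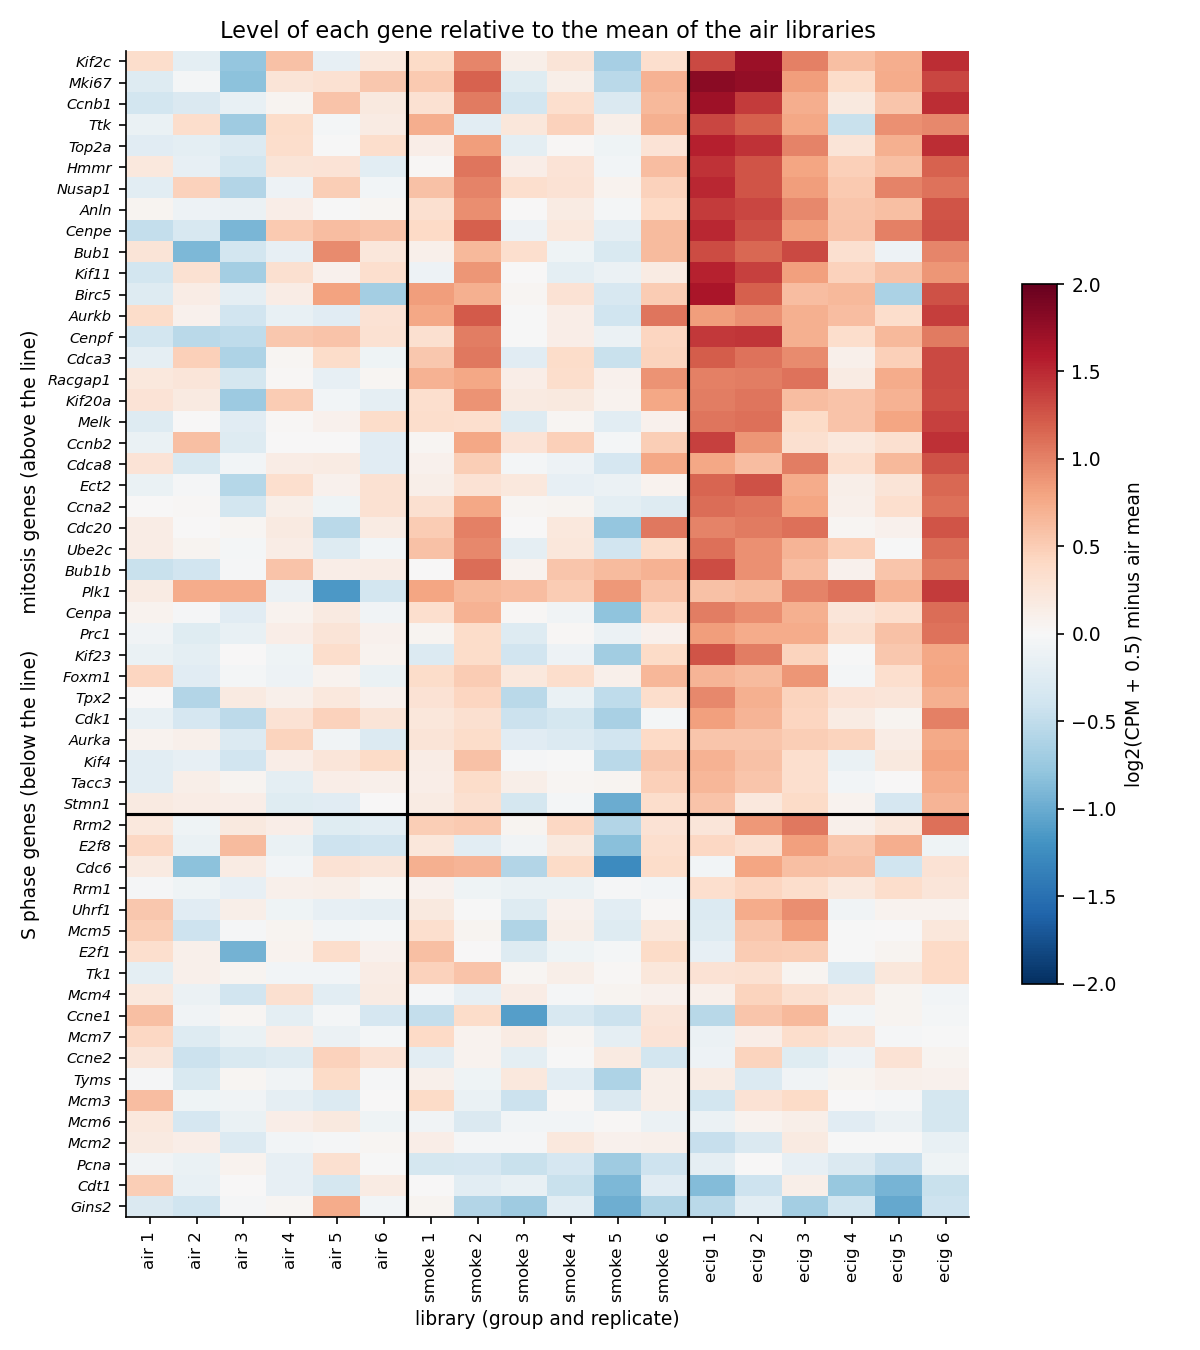
Level of each member (rows, mitosis above the line, S phase below) in each library (columns), as log2(CPM + 0.5) minus the air mean; red is above and blue below air. E-cigarette libraries 1, 2, 3 and 6 hold the strongest red over the mitosis genes, libraries 4 and 5 are paler, and smoke library 2 is the reddest of its group.

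The e-cigarette libraries were not alike in strength. Library 6 had 36 of 36 mitosis genes above every air library, libraries 1 and 2 had 35 each and library 3 had 32, while libraries 4 and 5 had 14 and 20. Libraries 4 and 5 also held the least thyroid transcript, and libraries 1 and 3 held the most of their group. Tg did not rank the other libraries alike, at 0.271% in library 6, 0.0729% in library 2 and 2.77% in library 3. Libraries 4 and 5 also had the highest skeletal muscle sums of the group (38508 and 39206 CPM) and mitochondrial shares (6.99% and 7.60%). The part of these in the result was not tested. With only e-cigarette libraries 1 and 3 kept in that group, the median mitosis fold change was 1.01 and 11 mitosis genes were called, where 3.71% of all tested genes were. Top2a then stood at 1.29 and Anln at 1.23. With a thyroid score as a covariate, 3 members were called (Top2a, Anln and Racgap1) at a median mitosis value of 1.41, and 0.279% of all tested genes were. The score and the group are largely confounded.

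Several marker lists of other tissues had a larger share called between e-cigarette and air than the 25.1% of all tested genes. Others did not, with 10% for endothelium, 11.1% for ciliated cells, 20% for adipocytes and 0% for erythroid and marrow precursors. Cartilage stood at 30%. Gland genes rose in 7 of 9 tested acinar markers (median 2.12), and the list summed to 1130 to 25441 CPM per air library and 19134 to 53848 CPM per e-cigarette library. Skeletal muscle genes rose in 8 of 10 (median 0.53), and fibroblast genes in 6 of 10 (median 0.59), among them Fbn1 (0.76) and Mfap4 (1.17) of the extracellular matrix. All 7 parathyroid and C cell markers fell, from a sum of 1424 to 9290 CPM per air library to 13.9 to 264 CPM, and 3 of 4 tested B cell markers fell (median -1.44). The mitochondrial share of counts was 4.85% ± 0.654 for air and 6.27% ± 0.966 for e-cigarette (SD).

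The epithelial, macrophage and T cell lists moved less evenly than those of gland cells and fibroblasts, which can divide as well. All 9 tested acinar markers and all 10 fibroblast markers had positive values. Of 10 basal epithelium markers, Trp63 (0.67), Dst (0.61) and Pdpn (0.34) rose and none fell, but 4 had negative values, down to -0.35, at a list median of 0.25. Krt5 (0.37) and Krt14 (-0.01), the basal keratins, did not pass the test. The muscle precursor list also holds genes of differentiating muscle. Of its 6 tested genes, Myog (1.01), Myh3 (0.98) and Myh8 (0.67) rose, all of the differentiating kind, and none of Pax7, Myf5 and Myod1 was called. Among 10 squamous markers Dsg3 (1.03) rose and 2 had negative values, at a list median of 0.90. That list summed to 3200 to 9823 CPM per air library and 6686 to 22210 CPM per e-cigarette library. Of 10 macrophage markers 2 rose, Lyz2 (1.09) and Mrc1 (0.64), 1 fell and 4 were negative, at a median of 0.16. T cell and thymocyte markers were low throughout, 4.33 to 7.43 CPM summed in air and 2.72 to 5.40 CPM in e-cigarette. The thymocyte genes Rag1 and Rag2 were at 0 in all air libraries, and Ptcra and Dntt in all e-cigarette libraries. In air libraries 1 and 3 only 2 of the 12 listed genes were at 0, so Ptcra and Dntt had counts there. Between 3 and 6 of the 12 were at 0 per e-cigarette library. With a basal score as a covariate 24 members were called, beside 24.8% of all tested genes, and the median mitosis value was 0.78. With a T cell score these were 17, 15.3% and 0.83. The part of these cell types in the result was not tested beyond these fits.

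Smoke gave no call among the mitosis genes in the main fit. All but 3 of the 36 had positive log2 fold changes against air, with a median of 0.33 and a range of -0.17 (Cdk1) to 0.70 (Aurkb), but 0 of 36 passed edgeR's test, and 6 of 36 had an unadjusted p below 0.05. DESeq2 also called 0 of them and voom 1 (Plk1), beside 5.51% and 6.35% of all tested genes. Cenpe (adjusted p = 0.017) and Cenpf (adjusted p = 0.0323) were each called higher in 1 of the alternative edgeR fits. Among all tested genes 1.59% were called in smoke against air. The e-cigarette and smoke comparisons share the air libraries. Smoke library 2 was the strongest of its group, with 28 of 36 mitosis genes above every air library, followed by library 6 with 20 and library 1 with 13. Libraries 3, 4 and 5 had 0, 5 and 2, and library 5 had 10 below every air library. Without library 2 the median mitosis fold change was 0.12.

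Among the best known proliferation genes, Top2a differed by 0.19 (SE 0.22, adjusted p = 0.663), Mki67 by 0.35 (SE 0.32, adjusted p = 0.561) and Ccnb1 by 0.37 (SE 0.30, adjusted p = 0.515). Plk1 differed by 0.55 (SE 0.25, adjusted p = 0.214), and every smoke library exceeded the air median of 10.2 CPM. Foxm1 differed by 0.42 (SE 0.18, adjusted p = 0.21).

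Pcna, the sliding clamp of the DNA polymerases (ENSMUSG00000027342, chromosome 2, 132249162 to 132253314), was the 1 member called in smoke, and it fell. It ran from 47.4 to 66.5 CPM in air (median 51.9), 32.3 to 42.1 CPM in smoke (median 40.8) and 38.6 to 53.5 CPM in e-cigarette (median 47.2). Smoke and air did not overlap, which held for 0.89% of all tested genes in the lower direction and 2.43% in either, and 0.616% of all tested genes fell. The log2 fold change was -0.44 (SE 0.10, adjusted p = 0.0282), and e-cigarette lay between at -0.20 against air (adjusted p = 0.14). The call was lost without air library 5 (-0.37, adjusted p = 0.0706), smoke library 3 (-0.44, adjusted p = 0.0618), smoke library 5 (-0.40, adjusted p = 0.0662) or smoke library 6 (-0.46, adjusted p = 0.0548). Smoke values of the other S phase genes centred near air, with a median of -0.06 over all 19. Gins2 (-0.61, adjusted p = 0.168) and Cdt1 (-0.36, adjusted p = 0.377) did not pass the test.

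Set directly against e-cigarette, smoke was lower in 12 of 36 mitosis genes and in 1 of 19 S phase genes, where 6.1% of all tested genes were lower. The medians were -0.65 for mitosis and -0.16 for S phase. The called mitosis genes covered DNA untangling (Top2a, -0.96, SE 0.22, adjusted p = 0.00541), spindle and centromere (Kif2c, Kif11, Cenpa and Cdca8, -0.62 to -1.02), cytokinesis (Prc1, Kif23, Anln and Ect2, -0.74 to -0.84) and the kinases and cyclins Melk, Cdk1 and Ccna2 (-0.70 to -0.88). Melk was the mitosis gene whose smoke and e-cigarette ranges did not overlap (-0.88, SE 0.17, adjusted p = 0.00165). Prc1 gave -0.74 (SE 0.14, adjusted p = 0.00154). Cdk1, at -0.74 (SE 0.23, adjusted p = 0.0315), was called here although it was not called against air in either group. Mki67 (-0.84, adjusted p = 0.0761) and Ccnb1 (-0.80, adjusted p = 0.0643) were not called.

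Rrm1 was the S phase gene that was lower in smoke than in e-cigarette (-0.39, SE 0.07, adjusted p = 0.00104), with no overlap. Of all tested genes 9.37% did not overlap between smoke and e-cigarette, 2.72% with smoke lower and 6.65% with smoke higher. No member was called higher in smoke, as 10.4% of all tested genes were. Aurkb (-0.30, adjusted p = 0.534), Plk1 (-0.27, adjusted p = 0.498), Bub1b (-0.25, adjusted p = 0.5), Foxm1 (-0.22, adjusted p = 0.439) and Tacc3 (-0.21, adjusted p = 0.381) had the smallest smoke to e-cigarette differences among the mitosis genes, and their SEs ran from 0.15 to 0.30. The number of calls ranged from 8 to 21 when single libraries were left out, from 8 without smoke library 3, smoke library 5 or e-cigarette library 6 to 20 without smoke library 2 and 21 without e-cigarette library 4. The calls of Cdk1, Ccna2, Kif2c, Cenpa and Cdca8 were lost in at least 1 of those fits. With e-cigarette libraries 1 and 3 only, 1 call was left at a median mitosis value of -0.79, and with the thyroid score as a covariate edgeR called 0 at a median of -1.06. The former fit called 0.794% of all tested genes and the latter 0%, so 0 calls there is not particular to the members.

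Comparing the classes within a library, the mean log2 CPM of the mitosis genes minus that of the S phase genes ran from -1.19 to -0.69 over the air libraries, from -0.74 to -0.13 over smoke and from -0.56 to 0.48 over e-cigarette. Gene lengths differ between the classes, so only its differences between libraries carry meaning. Every e-cigarette library lay above every air library on it, and smoke lay between, overlapping both. As medians of fold changes, mitosis exceeded S phase by 0.79 in e-cigarette against air and by 0.39 in smoke against air, and by -0.49 in smoke against e-cigarette, beside a within-group SD of 0.31 for the library values.

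**Figure D5:**
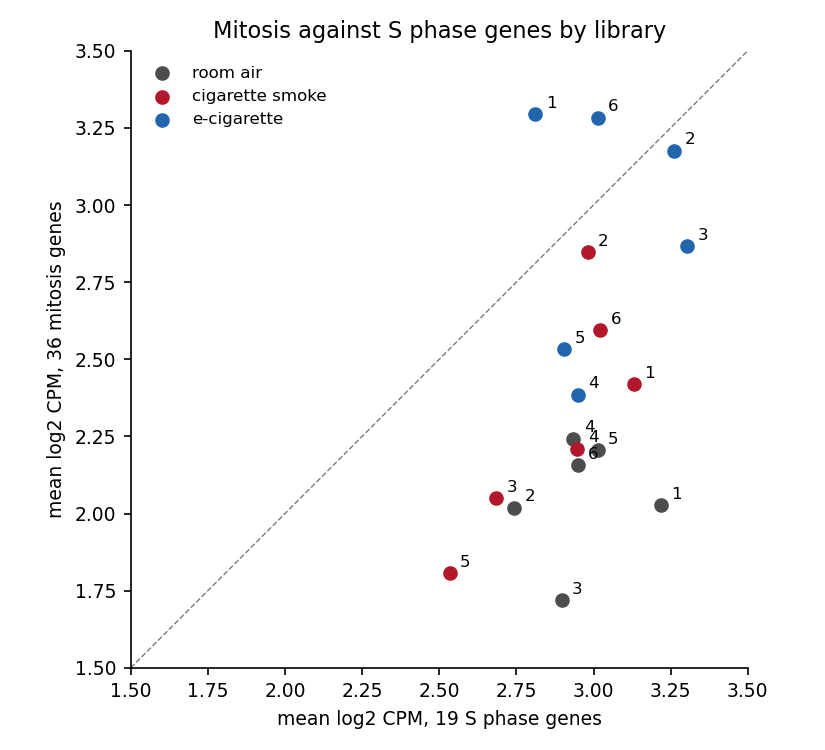
Mean log2 CPM of the 36 mitosis genes (y axis) against that of the 19 S phase genes (x axis) for each library, numbered by replicate; the dashed line marks equal means. E-cigarette libraries lie high at S phase values like those of the other groups, and the difference between the axes runs from -0.56 to 0.48 there and from -1.19 to -0.69 in air.

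The spread between replicates was larger for mitosis than for S phase genes in smoke and e-cigarette and near it in air. The median coefficient of variation was 24.6% for mitosis and 22.6% for S phase genes in air, 31.5% and 20.8% in smoke, and 29.4% and 22.2% in e-cigarette. Within the e-cigarette group the highest library was number 6 for 17 mitosis genes and number 1 for 14, and the lowest was number 4 for 26. Within smoke the highest was number 2 for 24 of 36 and the lowest was number 5 for 24.

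Cell cycle genes outside the 55, from lists set by function with earlier results known, gave a like picture by class, weaker for mitosis. They come from the same 18 libraries and are not an independent check. Of 53 other mitosis genes, 22 rose in e-cigarette (41.5%, beside 12.1% of all tested genes) and none fell, with a median of 0.67. The smallest p-values were those of Iqgap3 (1.11, SE 0.23, adjusted p = 0.00143), Cep55, which completes abscission (1.15, SE 0.24, adjusted p = 0.00153), and Espl1, the separase that cuts cohesin (0.95, SE 0.20, adjusted p = 0.00188). Of 41 other S phase genes, 3 rose, among them Pole, a replicative polymerase subunit (0.91), and Clspn (1.10), at a median of 0.13. In smoke against air edgeR called 0 of 53 and 0 of 41, with 6 and 2 at an unadjusted p below 0.05. Against e-cigarette, smoke was lower in 8 of 53 other mitosis genes, among them Knl1 (-1.23), Kif14 (-1.05) and Ckap2l (-0.98). With e-cigarette libraries 1 and 3 only, 3 of the other mitosis genes were called at a median of 0.69, beside 3.71% of all tested genes.

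G1 cyclins and their kinases went the other way. Of 9 tested, 6 fell in e-cigarette (66.7%, beside 13% of all tested genes) and none rose, with a median of -0.61. Ccnd3 (cyclin D3) fell from 66.5 ± 7.41 to 41.9 ± 4.73 CPM (-0.67, SE 0.09, adjusted p = 2.23e-05), Ccnd2 (cyclin D2) from 230 ± 29.4 to 142 ± 22.1 CPM (-0.70, SE 0.11, adjusted p = 0.000138) and Cdk6, a partner of the D cyclins, from 42.5 ± 4.19 to 27.8 ± 3.08 CPM (-0.61, SE 0.10, adjusted p = 0.000145). With e-cigarette libraries 1 and 3 only, 2 of the 9 fell at a median of -0.52, and with the thyroid score as a covariate none was called by edgeR at a median of -0.42. In those fits 3.71% and 0.279% of all tested genes were called in either direction. Ccnd1 (cyclin D1) differed by -0.16 (adjusted p = 0.458). In smoke against air edgeR called 0 of 9, with 4 at an unadjusted p below 0.05, and against e-cigarette 5 of 9 were higher in smoke.

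Of 12 tested genes on the list of CDK inhibitors and pocket proteins, which also holds the cyclin Ccng1, 3 rose in e-cigarette. These were the inhibitor Cdkn1c (0.71, SE 0.15, adjusted p = 0.00133), Ccng1 (0.47) and the pocket protein Rbl2 (0.33). Of 14 E2F, MYB and DREAM factors, E2f5 (-0.78, SE 0.13, adjusted p = 0.000218) and E2f4 (-0.31) fell and E2f6 (0.30) and E2f2 (0.51) rose. The shares called, 25% and 28.6%, were near the 25.1% of all tested genes. In smoke against air edgeR called 0 of these 12 and 0 of these 14, with 4 and 0 at an unadjusted p below 0.05.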

How the data were processed

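Whole mouse larynges were profiled by mRNA sequencing. Per the labels' protocols, 1 µg of total RNA per sample entered a NEBNext Ultra kit, a library type without strand information. The authors ran STAR and featureCounts 1.5.0-p3 with builds GRCm38 and mm10, per the submitters' processing notes. The STAR version is not given in the sources used here. The deposited table holds raw counts per gene, and its 18 columns matched the sample titles. The strand setting is not given in the sources used here, so reads from overlapping genes may not be separable. This touches 26 of the 55 members, 15 of them with a protein-coding neighbour.

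Genes were filtered with filterByExpr (minimum count 10, minimum total 15), leaving 17537. One model of the 3 groups was fitted in edgeR 4.0.16 (R 4.3.3, TMM, robust quasi-likelihood F test, no covariates), with Benjamini-Hochberg adjustment over all tested genes. "Rose", "fell" and "called" mean an adjusted p below 0.05, and "called" in other tools uses that tool's own adjusted p. Fold changes are log2, SE derives from the F statistic, CPM uses TMM-scaled library sizes, and values per kilobase use the deposited gene length. The step was tested on simulated data. Total counts of 15.6 to 22.5 M per library set the precision, and the 45 pairs of replicates all differed beyond counting error, with chi-square values of 17.0 to 151 for each degree of freedom.

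Members, lists and tests were chosen with earlier results of these data known. Any member could be named; full statistics were given for up to 8 called genes per class and comparison with the smallest p and for 14 genes whatever their p, and up to 3 called genes per other list. Ccnd1, E2f2, Krt5, Krt14 and the named thymocyte genes fall outside this rule and were chosen after their values were seen. Alternatives were DESeq2 1.42.0, voom (limma 3.58.1), other scalings, filters and thresholds, a replicate block, composition covariates and leaving out libraries. The values of 2 genes on the lists are not reported here.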

Additional observations from a re-analysis of the deposited data

Results flagged for a closer look

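The levels of the 55 members and the summed levels of both classes, each in 3 groups, gave 171 sets of 6 libraries. In 12 of them, all of single genes, 1 library lay far from the other 5 of its group. Chance gives about 1 in 20.

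Smoke library 2 was high in 3 mitosis genes, with 22.5 CPM for Top2a where the other smoke libraries had 10.7 to 15.1 CPM, 8.36 CPM for Kif11 against 3.71 to 4.92 CPM and 14.3 CPM for Anln against 7.07 to 9.67 CPM. Smoke library 5 was low in Pcna, at 32.3 CPM against 38.9 to 42.1 CPM. Air library 1 was high in 3 S phase genes, with 2.59 CPM for Ccne1 (others 1.11 to 1.603 CPM), 14.0 CPM for Mcm3 (others 7.29 to 9.00 CPM) and 10.3 CPM for Uhrf1 (others 5.92 to 7.57 CPM). Air library 2 was high in Ccnb2, at 4.03 CPM against 1.99 to 2.51 CPM, and low in Tpx2, at 3.91 CPM against 6.19 to 7.23 CPM. Air library 5 was low in Cdc20, at 4.10 CPM against 6.21 to 7.08 CPM, and high in Gins2, at 5.92 CPM against 2.42 to 3.45 CPM. Air library 3 was low in E2f1, at 1.28 CPM against 3.10 to 3.87 CPM. None of the 12 lay in the e-cigarette group.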

How the results depend on the processing

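Members called in e-cigarette against air numbered 35, with 26 to 35 when single libraries were left out (26 without e-cigarette library 6), 16 at an adjusted p below 0.01, 3 with the thyroid score as a covariate, 8 with 4 composition scores, 17 with the T cell score and 11 with e-cigarette libraries 1 and 3 only. Of all tested genes, 25.1% were called in the main fit. The last 4 of these fits called 0.279%, 2.26%, 15.3% and 3.71% of all tested genes. The median difference of mitosis minus S phase was 0.79, ran from 0.69 to 0.85 when single libraries were left out, and was 1.31 with the thyroid score. Plk1 turned to -0.12 with 4 composition scores, and the cause was not tested. Of the 35, Top2a and Anln were called under every one of the 34 alternatives. In smoke against air the single call became 0 at an adjusted p below 0.01, 0 with the replicate block, 0 with the T cell score, 2 with voom and 2 with 4 composition scores, and 0 to 1 when single libraries were left out, where the median difference ran from 0.17 (without smoke library 2) to 0.45. The replicate block called 0.222% of all tested genes there and the T cell score 0.342%. With voom the share was 6.35% and with 4 composition scores 4.74%, beside 1.59% in the main fit. In smoke against e-cigarette the 13 calls became 5 at an adjusted p below 0.01, 20 with DESeq2, 25 with voom, 0 with the thyroid score, 0 with 4 composition scores, 8 with the basal score, 1 with e-cigarette libraries 1 and 3 only and 8 to 21 when single libraries were left out. Of all tested genes in that comparison, DESeq2 called 19.3% and voom 22.8%, beside 16.5% in the main fit. The thyroid score and the 4 composition scores each left 0%, the basal score 14.2% and e-cigarette libraries 1 and 3 only 0.794%. The median difference there was -0.91 with the thyroid score and -0.63 to -0.35 when single libraries were left out. The cause of these differences was not tested. Fits with the thyroid score or fewer libraries for the other cell cycle lists were chosen after seeing the data.

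The labels repeat replicate numbers 1 to 6 across groups. Same-numbered libraries showed no strong shared deviation over all genes (correlations from -0.45 to 0.16). Over the members the correlations ran from -0.72 to 0.52. There smoke libraries 4 and 5 matched the same-numbered e-cigarette library best, smoke library 1 matched air library 1 best, and the other pairs did not. Whether the numbers stand for a shared day or cage cannot be told from these values. With the replicate block 31, 0 and 14 members were called in the 3 comparisons, beside 21.9%, 0.222% and 13.6% of all tested genes. No sample correlated best with its own number over all genes.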
